A study of Mus musculus with 8 samples.

Results

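The vacuolar proton pump and the cathepsins are described here in RAW264.7 cells, a mouse macrophage-like tumour line, kept with TABS (the Trio-Active bone scaffold) or with HA/Mg (hydroxyapatite doped with magnesium ions). The genes were taken by name among protein-coding genes: the pump subunits and their accessory proteins (symbols beginning Atp6v0, Atp6v1 or Atp6ap), the cathepsins with a single-letter name except Ctsk, and Tcirg1, Clcn7, Ostm1, Lamp1 and Lamp2. This gave 48 of the 21899 protein-coding genes in a table of 55335 identifiers. They are 10 genes of the membrane sector V0 (with Tcirg1), 14 of the cytosolic sector V1, 3 accessory genes, 17 cathepsins and 4 other lysosomal membrane proteins. The rule takes Atp6v1fnb by its symbol, although that gene is named as a neighbour of Atp6v1f and not as a pump subunit.

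RNA of 8 libraries was sequenced after 3 days of culture, 4 with TABS and 4 with HA/Mg, numbered as replicates 5 to 8 in both groups. All libraries came from the same cell line, and every cell was kept with a scaffold, so each value compares TABS with HA/Mg and not with cells free of a material. The labels do not say what TABS contains or whether the libraries of a group were separate cultures, and the p-values therefore rest on library-to-library spread, which may be technical. Descriptions tie column letter H to TABS and L to HA/Mg; were these swapped, every direction given here would turn round. Expression is given in FPKM (fragments normalised for transcript length and library total). If whole fragments were counted, the spacing of low values would correspond to 19800000 to 23600000 fragments a library. These depths are uncertain, because only a limited range of spacings was searched and only 36.2% to 39.4% of low values were whole. HA/Mg replicate 6 was the HA/Mg library nearest to TABS for 5 of the 6 genes that changed, and 3320 genes in place of 1842 passed the test without it. Results that rest on it are therefore given with and without it. It was singled out with these values known, and leaving out the library nearest to the other group favours calls, so passing only without it is a description. Without HA/Mg replicate 5, 7 or 8 the counts were 429, 475 and 694. In bulk libraries, fewer cells of a kind and less RNA per cell cannot be told apart.

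The pump acidifies lysosomes and endosomes by coupling ATP hydrolysis in V1 to proton movement through V0, and cells adjust it by joining and parting the sectors as well as by making more of them. Most cathepsins are proteases that need the acid lumen to work. In macrophages they degrade what has been engulfed, and in osteoclasts, which arise from the same lineage, the pump is placed on the cell surface to dissolve bone mineral. Many pump and lysosomal hydrolase genes carry E-box-like sites in their promoters that are bound by TFEB and related factors.

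Of the 48 genes, 31 reached 1 FPKM in at least 4 libraries and were tested, and 6 of these (19.4%) passed an adjusted p of 0.05 in limma, beside 18.1% of all 10161 genes tested. At that threshold the share of changed pump and cathepsin genes was close to that of genes in general. Tcirg1, Atp6v0b and Atp6ap1 rose with TABS (5.07% of all tested genes rose) and Atp6v1h, Atp6ap2 and Ctse fell (13.1% of all tested genes fell). The 6 log2 changes were small, from 0.17 to 0.39 in absolute size, against a median absolute change of 0.29 over all 1842 changed genes. The ranges of TABS and HA/Mg values were separate in 12 of the 31 members (38.7%), beside 23.1% of all tested genes. Of these, 8 were higher with TABS (8.05% of all tested genes) and 4 lower (15.0%). Unadjusted, 21 of the 31 members (67.7%) had a p under 0.05 in limma, beside 36.4% of all tested genes, so at this looser threshold the members' share was the larger. The choice of scaling moved the direction of calls: the members had 3 higher and 3 lower calls as deposited, 6 and 3 with median-of-ratios scaling, 3 and 4 with quantile normalization and 1 and 5 after rescaling to equal sums. Over all genes 28% of calls were higher as deposited, 45.5% with median-of-ratios scaling, 40.3% with quantile normalization and 13.9% after rescaling. Without HA/Mg replicate 6, 14 members passed (10 higher, 4 lower), or 45.2% beside 32.7% of all tested genes. Leaving out HA/Mg replicate 5 left 1 member (3.23%, beside 4.22% of all tested genes), and HA/Mg replicate 7 left 2 (6.45%, beside 4.67%). Without HA/Mg replicate 8 there were 4 (12.9%, beside 6.83%), and without TABS replicate 7 also 4 (beside 9.28%).

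Positive changes were more frequent in the membrane sector of the pump than in the cytosolic sector, a difference that was not tested. Of 8 tested V0 genes 7 had a positive log2 change, with a median of 0.20, and the same 7 had an unadjusted p under 0.05, while 12.1% of all tested genes were higher at that threshold. Of 8 tested V1 genes 3 had a positive and 5 a negative log2 change, with a median of -0.05, beside -0.04 over all tested genes. Unadjusted, 5 of these 8 (62.5%) had a p under 0.05 in limma, 2 higher and 3 lower, beside 36.4% of all tested genes. Over all 10161 tested genes 4295 had a positive log2 change. The V0 median stayed positive under all 23 alternatives (0.13 to 0.26), although several of these could not alter a gene's log2 change. The V1 median turned positive with median-of-ratios scaling (0.0034) and after removal of trends on transcript length and GC content (0.08). Of 9 tested cathepsins 5 were positive and 4 negative, with a median of 0.06, and 5 (55.6%) had an unadjusted p under 0.05, 3 higher and 2 lower. These medians are descriptions of lists chosen with results of these libraries known, and no test was made over a list.

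Summed over its genes, V0 held 452, 442, 464 and 506 FPKM in TABS replicates 5 to 8, against 387, 418, 398 and 397 FPKM in HA/Mg replicates 5 to 8. All 4 TABS libraries lay above all 4 HA/Mg libraries, as also held for the V1 and cathepsin sums below. The V0 mean was 1.17-fold higher (466 ± 28.2 with TABS and 399.7 ± 13.0 FPKM with HA/Mg, SD, n = 4 each). V1 summed to 459, 471, 462 and 459 FPKM with TABS, compared with 451, 447.5, 446.7 and 438.5 FPKM with HA/Mg, a mean 1.04-fold higher that came to 1.0-fold after rescaling to equal sums. The ratio of the V0 sum to the V1 sum, which does not depend on a library's scaling total, was 0.984, 0.9368, 1.005 and 1.10 in TABS replicates 5 to 8, against 0.858, 0.9337, 0.89 and 0.904 in HA/Mg replicates 5 to 8. The groups did not overlap, but TABS replicate 6 and HA/Mg replicate 6 differed only in the third decimal. Neither the sums nor this ratio were formed after removal of length and GC trends, which put the V0 median log2 change at 0.13 and that of V1 at 0.08. Without Atp6v0c, whose value in TABS replicate 8 stood far above the others, the mean ratio was 0.849 ± 0.031 with TABS and 0.781 ± 0.024 with HA/Mg, with TABS replicate 6 (0.8071) and HA/Mg replicate 6 (0.8067) nearly equal. The V0 sums leave out a pseudogene of Atp6v0c, described below, that may hold some of its fragments. The cathepsin sum was 3406, 3392, 3603 and 3453 FPKM with TABS, compared with 3131, 3387, 3159 and 2969 FPKM with HA/Mg, or 1.10-fold higher. Its separation rests on a small margin between TABS replicate 6 (3392) and HA/Mg replicate 6 (3387), and quantile normalization put the sum at 1.01-fold. Cathepsins over pump gave 3.73 ± 0.13 with TABS and 3.74 ± 0.15 with HA/Mg. As deposited, the cathepsin sum and the pump sum thus differed between the groups by nearly the same factor (0.999-fold for their ratio). With quantile normalization the ratio was 0.949-fold. The pump sum joins V0 (1.17-fold) and V1 (1.04-fold), and Ctsd, Ctsz and Ctsb held 83.5% of the cathepsin sum. The near-equal factor therefore describes sums and not each sector or gene.

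**Figure D1:**
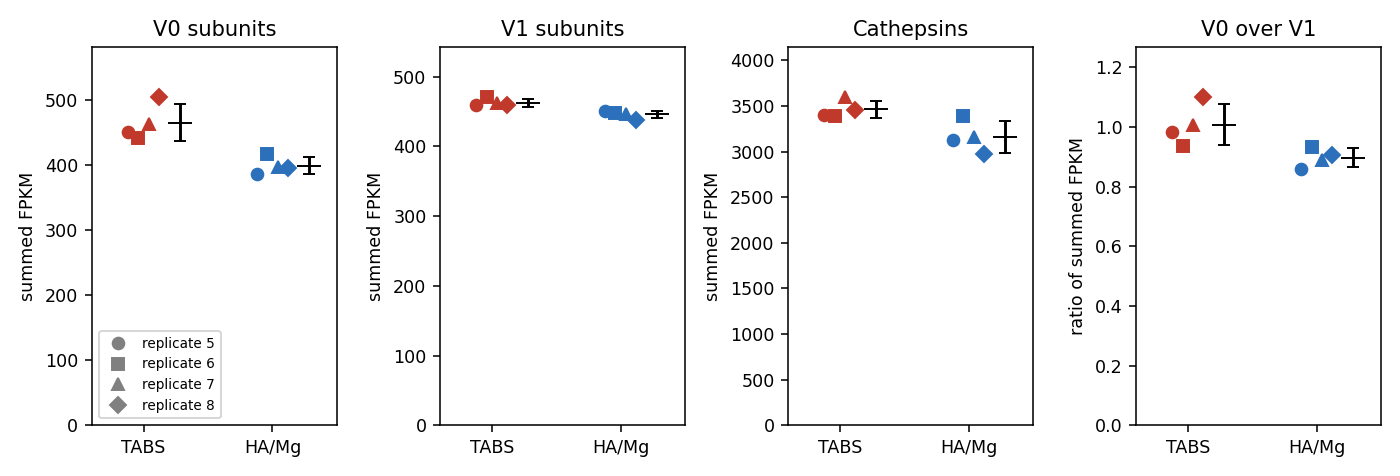
Summed FPKM of V0, V1 and cathepsin genes and the ratio of the V0 to the V1 sum, on linear axes from 0, in each library; symbols mark the replicate number, and the black bar is the mean with its SD (n = 4). The V0 sums of TABS libraries (442 to 506) lie above those of HA/Mg libraries (387 to 418). The V1 sums also do not overlap but differ by less, at 459 to 471 with TABS and 438.5 to 451 with HA/Mg.

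**Figure D2:**
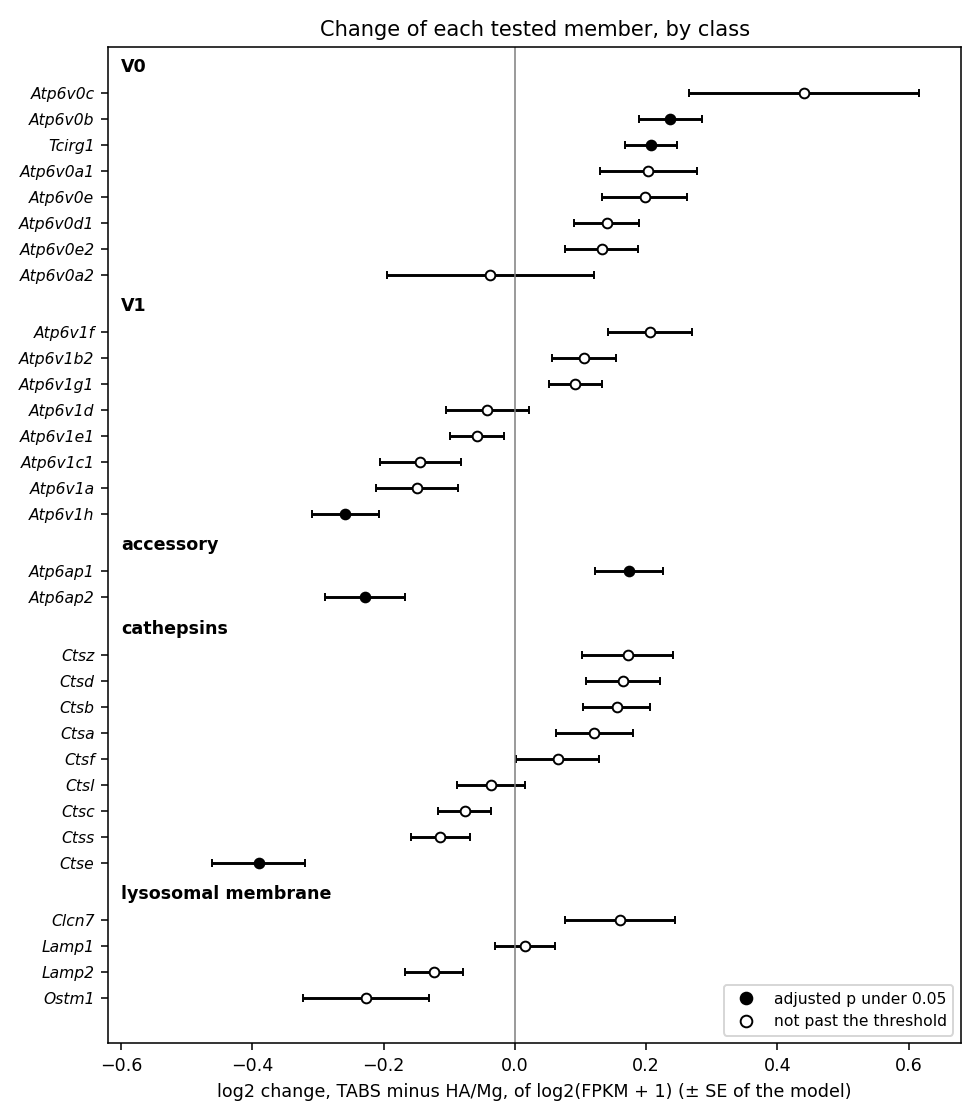
Log2 change (TABS minus HA/Mg, on log2(FPKM + 1)) with the standard error of the limma model for the 31 tested members, grouped by class; filled points passed an adjusted p of 0.05. Of the V0 genes 7 of 8 lie right of 0, V1 genes and cathepsins lie on both sides, and 6 points are filled.

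Within V0, subunit a exists in several isoforms that send the pump to different membranes. Tcirg1 encodes isoform a3, found on lysosomes and on the bone-facing membrane of osteoclasts, and its loss causes osteopetrosis in mice and humans. It stood at 61.8, 59.2, 56.6 and 59.4 FPKM in TABS replicates 5 to 8, against 50.3, 50.4, 51.2 and 52.7 FPKM in HA/Mg replicates 5 to 8. Every TABS library exceeded every HA/Mg library, and Tcirg1 rose by 0.21 ± 0.04 on the log2 scale (SE, 1.16-fold, adjusted p = 0.0137). Its adjusted p was 0.0516 without HA/Mg replicate 5, so the call ended there, as it did after rescaling to equal sums (adjusted p = 0.0522) and after removal of length and GC trends (log2 change 0.13, adjusted p = 0.0547). Atp6v0a1, isoform a1, was 18.6, 18.4, 15.6 and 14.71 FPKM with TABS, compared with 14.68, 14.4, 14.2 and 14.4 FPKM with HA/Mg. TABS replicates 5 and 6 were high, TABS replicates 7 and 8 lay just above the HA/Mg libraries, and the change of 0.20 ± 0.07 did not pass (adjusted p = 0.0835). It passed with median-of-ratios scaling (0.26, adjusted p = 0.0395), with quantile normalization (0.25, adjusted p = 0.0449), without TABS replicate 8 (adjusted p = 0.041) and after removal of length and GC trends (0.32, adjusted p = 0.0363). Isoform a2, Atp6v0a2, spread widely within both groups, from 7.19 to 9.78 FPKM with TABS and from 6.03 to 10.7 FPKM with HA/Mg (adjusted p = 0.888). Atp6v0a4, the isoform of kidney and inner ear, was listed at 0 in every library.

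The proteolipid ring that carries the protons is built mainly from subunit c (Atp6v0c) with the related c″ (Atp6v0b). Atp6v0b was 69.7, 73.2, 75.1 and 72.3 FPKM with TABS, compared with 57.5, 65.7, 61.6 and 61.1 FPKM with HA/Mg, without overlap. It rose by 0.24 ± 0.05 (1.18-fold, adjusted p = 0.0154). It no longer passed when HA/Mg replicate 5 (adjusted p = 0.0524) or 7 (adjusted p = 0.0503) was left out, or after removal of length and GC trends (0.13, adjusted p = 0.0789). Atp6v0c was 62.3, 61.1, 58.4 and 109 FPKM with TABS, compared with 48.5, 56.8, 50.1 and 50.7 FPKM with HA/Mg. TABS replicate 8 lay far above the other TABS libraries, and the change of 0.44 ± 0.18 did not pass (adjusted p = 0.103). Without that library the change was 0.23 and passed (adjusted p = 0.0433). A processed pseudogene, Atp6v0c-ps2 (chromosome 6, 37806086 to 37806550, plus strand), matched Atp6v0c at 386 of 387 aligned bases (99.7%) and was listed at 435, 410, 406 and 392.3 FPKM with TABS, compared with 337, 376, 327 and 354 FPKM with HA/Mg. The copy itself passed in limma (0.24 ± 0.06, adjusted p = 0.0223), and its groups did not overlap. Fragments of the pair may be shared between them, so the level and the test result of subunit c are uncertain. TABS replicate 8 was the lowest TABS library for the copy.

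The remaining V0 genes encode subunit d, which connects the ring to the rotor, and the small subunits e. Atp6v0d1, the widely used isoform, had the highest listed FPKM of the V0 genes, leaving aside fragments of subunit c that may be listed under its pseudogene, at 157, 148, 167 and 164 FPKM with TABS, compared with 140, 151, 140 and 146 FPKM with HA/Mg (0.14 ± 0.05, adjusted p = 0.0765). TABS replicate 6 lay below HA/Mg replicate 6. Its counterpart Atp6v0d2, which osteoclasts induce for fusion and acid secretion, was at or near 0, with at most 0.0327 FPKM. Atp6v0e was 44.2, 43.95, 50.3 and 47.7 FPKM with TABS, compared with 38.1, 43.95, 42.3 and 37.6 FPKM with HA/Mg (0.20 ± 0.07, adjusted p = 0.0629), with TABS replicate 6 above HA/Mg replicate 6 only in the third decimal, so its separate ranges rest on that margin. Atp6v0e2 stood at 30.7 ± 2.07 FPKM with TABS and 27.9 ± 1.26 FPKM with HA/Mg (SD, n = 4 each, adjusted p = 0.121). Without HA/Mg replicate 6, Atp6v0d1 (adjusted p = 0.0394) and Atp6v0e (adjusted p = 0.0249) also passed.

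In V1, the ATP-hydrolysing head is formed by subunits A and B, turned around the rotor subunits D and F and held by stalks of C, E, G and H. Atp6v1h, the regulatory stalk subunit H, fell: it was 9.31, 10.2, 9.72 and 10.2 FPKM with TABS, compared with 12.03, 11.3, 12.4 and 12.2 FPKM with HA/Mg. The groups did not overlap, and the log2 change was -0.26 ± 0.05 (1.22-fold lower, adjusted p = 0.0143). Without HA/Mg replicate 5 or 7 the adjusted p was 0.0526 and 0.0531, and after removal of length and GC trends the change shrank to -0.03 (adjusted p = 0.753). Atp6v1f, the rotor subunit F, went the other way, at 113, 124, 136 and 126 FPKM with TABS, compared with 107, 115, 99.9 and 110 FPKM with HA/Mg. TABS replicate 5 lay within the HA/Mg range, and the change of 0.21 ± 0.06 missed the threshold (adjusted p = 0.0535). It passed among genes of at least 5 FPKM (adjusted p = 0.0468), among protein-coding genes (adjusted p = 0.0496), with median-of-ratios scaling (adjusted p = 0.0478) and without HA/Mg replicate 6 (adjusted p = 0.0298).

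The catalytic subunit A, Atp6v1a, was 66.5, 66.6, 56.4 and 62.7 FPKM with TABS, compared with 73.1, 64.7, 71.9 and 69.9 FPKM with HA/Mg (-0.15 ± 0.06, adjusted p = 0.121). Its partner B, Atp6v1b2, was 64.7, 62.1, 57.4 and 58.0 FPKM with TABS, compared with 57.2, 54.1, 58.2 and 55.1 FPKM with HA/Mg (0.11 ± 0.05, adjusted p = 0.153). The groups overlapped for both subunits of the head, and the signs of their changes were opposite as deposited, while Atp6v1a stood at 0.01 after removal of length and GC trends. Atp6v1c1, the stalk subunit that leaves when the sectors part, was 25.9 ± 1.98 FPKM with TABS and 28.7 ± 1.38 FPKM with HA/Mg (adjusted p = 0.123). Atp6v1g1, at 143 ± 1.68 FPKM with TABS and 134 ± 5.54 FPKM with HA/Mg, did not overlap between the groups but did not pass (0.09 ± 0.04, adjusted p = 0.135). Atp6v1d and Atp6v1e1 differed by less than 5% between the group means (adjusted p = 0.659 and 0.334). The tissue-restricted isoforms Atp6v1b1 and Atp6v1g3 were listed at 0 in all libraries, and Atp6v1c2, Atp6v1e2, Atp6v1fnb and Atp6v1g2 reached at most 0.609 FPKM.

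The accessory proteins bind V0 and are needed for its assembly, and Atp6ap2 is also known as the prorenin receptor. The pair moved in opposite directions. Atp6ap1 was 73.3, 65.7, 71.3 and 67.4 FPKM with TABS, compared with 62.5, 65.3, 59.4 and 58.5 FPKM with HA/Mg, and rose by 0.17 ± 0.05 (1.13-fold, adjusted p = 0.0454). Atp6ap2 was 64.2, 66.3, 56.6 and 63.7 FPKM with TABS, compared with 74.9, 68.1, 78.3 and 73.1 FPKM with HA/Mg, with a log2 change of -0.23 ± 0.06 (1.17-fold lower, adjusted p = 0.0342). The groups did not overlap for either gene, but HA/Mg replicate 6 lay next to the TABS values in both. The call of Atp6ap1 was kept only without HA/Mg replicate 6 among the 8 fits that left out a library (adjusted p of 0.0502 to 0.125 in the other 7), and that of Atp6ap2 only without HA/Mg replicate 6 or TABS replicate 6 (adjusted p of 0.0589 to 0.0983 in the other 6). Atp6ap1 also did not pass after rescaling to equal sums (adjusted p = 0.101), with quantile normalization (adjusted p = 0.0596) or without a mean-variance trend (adjusted p = 0.064). Without the filter on low values neither passed (adjusted p = 0.0965 for Atp6ap1 and 0.0839 for Atp6ap2). After removal of length and GC trends neither passed (0.16, adjusted p = 0.103 for Atp6ap1, and -0.06, adjusted p = 0.385 for Atp6ap2). Atp6ap1l was listed at 0.

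**Figure D3:**
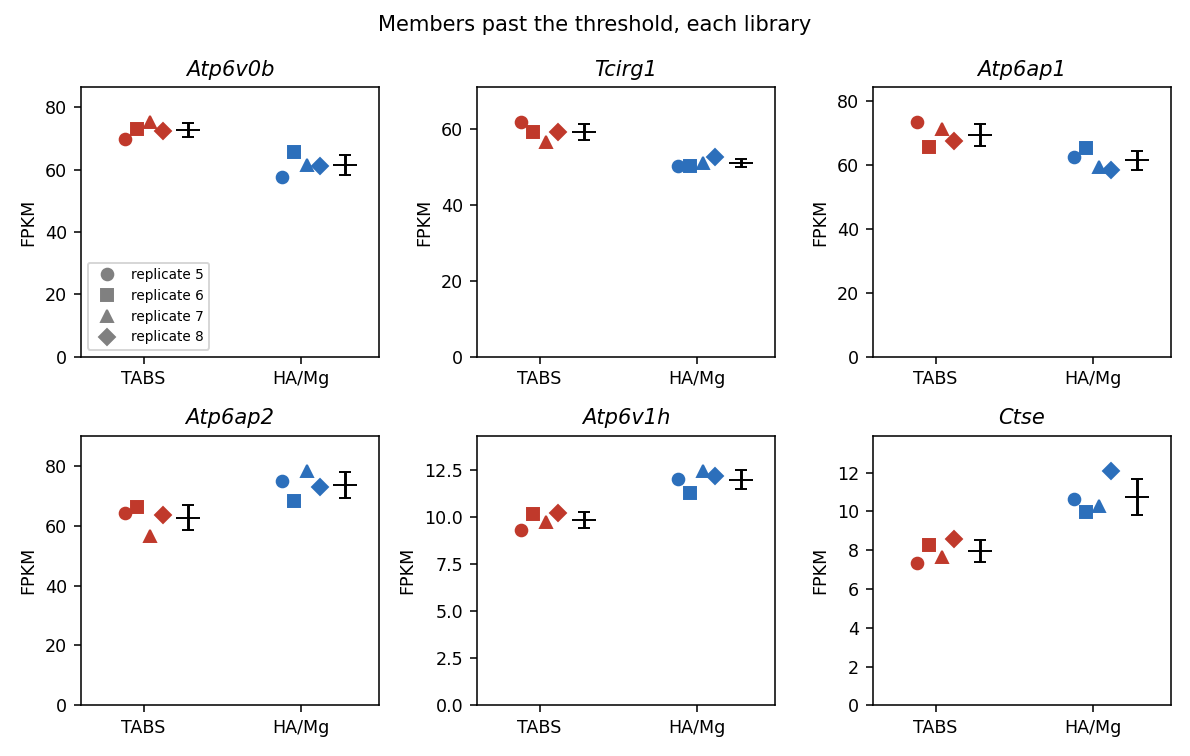
FPKM in each library, on linear axes from 0, of the 6 members that passed an adjusted p of 0.05; symbols mark the replicate number and the black bar is the mean with its SD (n = 4). No group overlaps for any of the 6 genes, and HA/Mg replicate 6 (blue square) is the HA/Mg library nearest to TABS for Atp6v0b, Atp6ap1, Atp6ap2, Atp6v1h and Ctse.

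On GRCm38, Tcirg1 (ENSMUSG00000001750) lies on chromosome 19 from 3896050 to 3907133 and Atp6v0b (ENSMUSG00000033379) on chromosome 4 from 117884326 to 117887333, both on the minus strand. Atp6v1h (ENSMUSG00000033793) lies on chromosome 1 from 5070018 to 5162529 and Ctse (ENSMUSG00000004552) on the same chromosome from 131638306 to 131675505, both on the plus strand. Atp6ap1 (ENSMUSG00000019087) occupies chromosome X from 74297097 to 74304721 and Atp6ap2 (ENSMUSG00000031007) chromosome X from 12587801 to 12617049, both on the plus strand. All 6 are protein-coding, and values are over whole genes.

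Promoter windows of 300 bases (250 before to 50 after the RefSeq start, GRCm38.p6) were searched on both strands for the E-box CACGTG, for its extended form TCACGTG, which contains it, and for the M-box TCATGTG; 37 of the 48 genes, 24 of them tested, had a window. Counted by window, 7.15% of all 32851 windows held CACGTG. Counted by gene, it lay in a window of 10 of these 24 genes (41.7%), beside 12.6% of 7425 tested genes and 8.09% of all 27025 genes with a window. By class these were 3 of 7 V0 genes (Atp6v0b, Atp6v0d1, Atp6v0e), 1 of 4 V1 genes (Atp6v1a), 4 of 7 cathepsins (Ctsa, Ctsd, Ctsf, Ctsl), 0 of 2 accessory genes, and Clcn7 and Lamp1 of the 4 other membrane proteins. TCACGTG was in 8 of the 24 (33.3%) beside 7.6% of tested genes, and TCATGTG in 4 (16.7%) beside 2.55%. Of the members that changed, the windows of Atp6v0b held CACGTG and those of Tcirg1, Atp6ap1 and Atp6ap2 did not, while Atp6v1h and Ctse had no window. Genes with and without the motif were among those that rose, and whether the motif goes with a change was not tested. The windows below, written 5′ to 3′ on the gene's strand with motif matches in capitals, show a V0 gene that rose with 2 matches, starting 36 and 18 bases before the start (Atp6v0b, chr4:117887280-117887579, minus strand), and one that rose with none (Tcirg1, chr19:3907084-3907383, minus). They also show a match in the V0 gene of highest listed FPKM, with its E-box beginning 3 bases before the start and running across it (Atp6v0d1, chr8:105566015-105566314, minus). Another match is in the catalytic V1 gene, 131 bases before the start (Atp6v1a, chr16:44139210-44139509, minus). The last are an accessory gene that fell, with none (Atp6ap2, chrX:12587509-12587808, plus), and the cathepsin of highest level, with matches 245 and 98 bases before the start (Ctsd, chr7:142387778-142388077, minus). These starts are RefSeq's, and for Atp6v1a and Ctsd they lie 446 and 211 bases inside the GENCODE gene. The Atp6v1a match and the nearer Ctsd match therefore fall after the GENCODE start.
Atp6v0b: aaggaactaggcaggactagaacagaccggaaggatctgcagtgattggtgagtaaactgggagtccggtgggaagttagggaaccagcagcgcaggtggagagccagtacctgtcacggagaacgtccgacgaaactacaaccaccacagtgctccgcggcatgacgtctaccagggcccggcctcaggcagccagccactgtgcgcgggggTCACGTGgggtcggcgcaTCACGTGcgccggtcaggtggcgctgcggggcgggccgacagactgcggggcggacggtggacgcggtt
Tcirg1: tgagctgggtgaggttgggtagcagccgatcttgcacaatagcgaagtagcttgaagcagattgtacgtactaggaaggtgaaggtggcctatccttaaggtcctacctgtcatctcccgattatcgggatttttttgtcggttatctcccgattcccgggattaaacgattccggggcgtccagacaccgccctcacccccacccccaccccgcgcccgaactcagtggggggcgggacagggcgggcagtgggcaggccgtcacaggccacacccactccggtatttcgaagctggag
Atp6v0d1: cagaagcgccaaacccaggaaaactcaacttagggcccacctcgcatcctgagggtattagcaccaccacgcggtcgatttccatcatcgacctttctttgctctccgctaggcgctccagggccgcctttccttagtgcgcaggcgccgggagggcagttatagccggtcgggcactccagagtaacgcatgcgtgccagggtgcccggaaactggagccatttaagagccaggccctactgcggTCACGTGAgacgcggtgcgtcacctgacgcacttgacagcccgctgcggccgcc
Atp6v1a: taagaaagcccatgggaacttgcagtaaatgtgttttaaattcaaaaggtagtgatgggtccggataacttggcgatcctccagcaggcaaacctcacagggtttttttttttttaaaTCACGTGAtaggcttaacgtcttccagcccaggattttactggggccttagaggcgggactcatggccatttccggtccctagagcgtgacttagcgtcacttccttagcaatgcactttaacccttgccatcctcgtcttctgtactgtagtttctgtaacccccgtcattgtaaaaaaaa
Atp6ap2: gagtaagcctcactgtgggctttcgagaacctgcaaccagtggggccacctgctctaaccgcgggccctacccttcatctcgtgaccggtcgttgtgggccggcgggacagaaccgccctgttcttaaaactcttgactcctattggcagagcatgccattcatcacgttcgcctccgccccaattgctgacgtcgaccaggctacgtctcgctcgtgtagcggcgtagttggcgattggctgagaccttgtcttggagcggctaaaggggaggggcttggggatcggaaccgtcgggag
Ctsd: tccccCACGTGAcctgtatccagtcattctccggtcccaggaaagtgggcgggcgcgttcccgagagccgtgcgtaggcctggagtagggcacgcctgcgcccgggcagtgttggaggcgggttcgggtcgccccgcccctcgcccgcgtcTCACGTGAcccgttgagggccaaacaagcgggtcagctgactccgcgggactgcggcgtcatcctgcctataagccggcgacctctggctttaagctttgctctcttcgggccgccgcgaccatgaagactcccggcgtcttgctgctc

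Among the cathepsins, Ctsd, an aspartic protease, and the cysteine proteases Ctsz and Ctsb held 83.5% of the class's summed FPKM. Ctsd was 1327, 1334, 1415 and 1397 FPKM with TABS, compared with 1241, 1264, 1257 and 1123 FPKM with HA/Mg (0.16 ± 0.06, adjusted p = 0.0691). The groups did not overlap, and HA/Mg replicate 8 lay below the other HA/Mg libraries. Ctsb was 750, 736, 736 and 705 FPKM with TABS, compared with 638, 709, 651 and 634 FPKM with HA/Mg (0.15 ± 0.05, adjusted p = 0.061). It shares 774 exonic bases with Fdft1 on the opposite strand (33.1 FPKM), and whether counting used strand is not given. Ctsz, a carboxypeptidase, was 791, 792, 891 and 809 FPKM with TABS, compared with 703, 822, 702 and 689 FPKM with HA/Mg (0.17 ± 0.07, adjusted p = 0.106). HA/Mg replicate 6 exceeded 3 of the 4 TABS libraries for Ctsz, and without it Ctsz (adjusted p = 0.0139), Ctsb (adjusted p = 0.0109), Ctsd (adjusted p = 0.0374) and Ctsa (adjusted p = 0.0247) all passed. Ctsa, a serine carboxypeptidase that protects lysosomal glycosidases, stood at 186 ± 8.12 FPKM with TABS and 171 ± 12.7 FPKM with HA/Mg in all libraries (adjusted p = 0.165), and it shares 495 exonic bases with Pltp and 324 with Neurl2.

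Ctse, an aspartic protease of endosomes, fell and was the single cathepsin past the threshold. It was 7.31, 8.27, 7.65 and 8.56 FPKM with TABS, compared with 10.6, 9.97, 10.3 and 12.1 FPKM with HA/Mg. The groups did not overlap, and the log2 change was -0.39 ± 0.07 (1.35-fold lower, adjusted p = 0.0126). Ctse kept its call in each of the 8 fits that left out a library (adjusted p of 0.0058 to 0.0446) and after removal of length and GC trends (-0.37, adjusted p = 0.0242). Ctss, which trims the invariant chain of MHC class II, was 227, 223, 234 and 228 FPKM with TABS, compared with 248, 261, 247 and 231 FPKM with HA/Mg (-0.11 ± 0.05, adjusted p = 0.104). TABS replicate 7 lay above HA/Mg replicate 8, and Ctss passed as lower after rescaling to equal sums (-0.16, adjusted p = 0.0218) and with quantile normalization (-0.19, adjusted p = 0.00998). Ctsc, the dipeptidyl peptidase that activates granule serine proteases, was 17.8 ± 0.34 FPKM with TABS and 18.8 ± 0.52 FPKM with HA/Mg without overlap (adjusted p = 0.201). Ctsl was 99.5 ± 5.06 FPKM with TABS and 102 ± 4.99 FPKM with HA/Mg (adjusted p = 0.639), and Ctsf 3.608 ± 0.27 FPKM with TABS and 3.402 ± 0.17 FPKM with HA/Mg (adjusted p = 0.482).

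Of the cathepsins below the filter, Ctsg of neutrophil granules and Ctsj, Ctsm, Ctsq and Ctsr, which mice use in the placenta, were listed at 0. Ctsh stayed under 0.06 FPKM, Ctsw, a protease of cytotoxic lymphocytes, under 0.05 FPKM and Ctso at or under 0.625 FPKM. Ctsk, the collagen-degrading cathepsin of osteoclasts, was also too low to be tested, at 0.361, 0.321, 0.265 and 0.343 FPKM with TABS, compared with 0.338, 0.401, 0.269 and 0.418 FPKM with HA/Mg. Acp5, the osteoclast acid phosphatase, was likewise low (0.458 ± 0.038 FPKM with TABS and 0.526 ± 0.12 FPKM with HA/Mg). It is named outside the rule for lists. Other genes of the osteoclast list were not low, among them Mmp9 (144 FPKM with TABS and 98.1 FPKM with HA/Mg) and Car2 (201 FPKM with TABS and 229 FPKM with HA/Mg). With Atp6v0d2 near 0, Atp6v0d1 was the subunit d gene of these libraries, while Tcirg1 had the highest FPKM of the subunit a genes in every library.

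Of the other lysosomal membrane genes, Clcn7 exchanges chloride for protons and needs Ostm1 as its partner, while Lamp1 and Lamp2 coat the membrane. None of the 4 passed in limma, and 2 (Lamp2 and Ostm1) had an unadjusted p under 0.05. Clcn7 was 15.7, 15.5, 12.2 and 12.9 FPKM with TABS, compared with 12.2, 11.6, 12.7 and 13.2 FPKM with HA/Mg (0.16 ± 0.08, adjusted p = 0.195). TABS replicates 5 and 6 were high, and TABS replicates 7 and 8 lay within the HA/Mg range. Ostm1 was 3.31, 3.45, 3.19 and 3.19 FPKM with TABS, compared with 3.97, 3.13, 4.48 and 4.62 FPKM with HA/Mg (-0.23 ± 0.10, adjusted p = 0.121). HA/Mg replicate 6 was below every TABS library, and without it Ostm1 passed (-0.32, adjusted p = 0.0084). Lamp1 was 453 ± 11.2 FPKM with TABS and 448 ± 19.8 FPKM with HA/Mg (adjusted p = 0.841), and Lamp2 27.1 ± 0.88 FPKM with TABS and 29.6 ± 1.09 FPKM with HA/Mg (-0.12 ± 0.04, adjusted p = 0.0759).

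**Figure D4:**
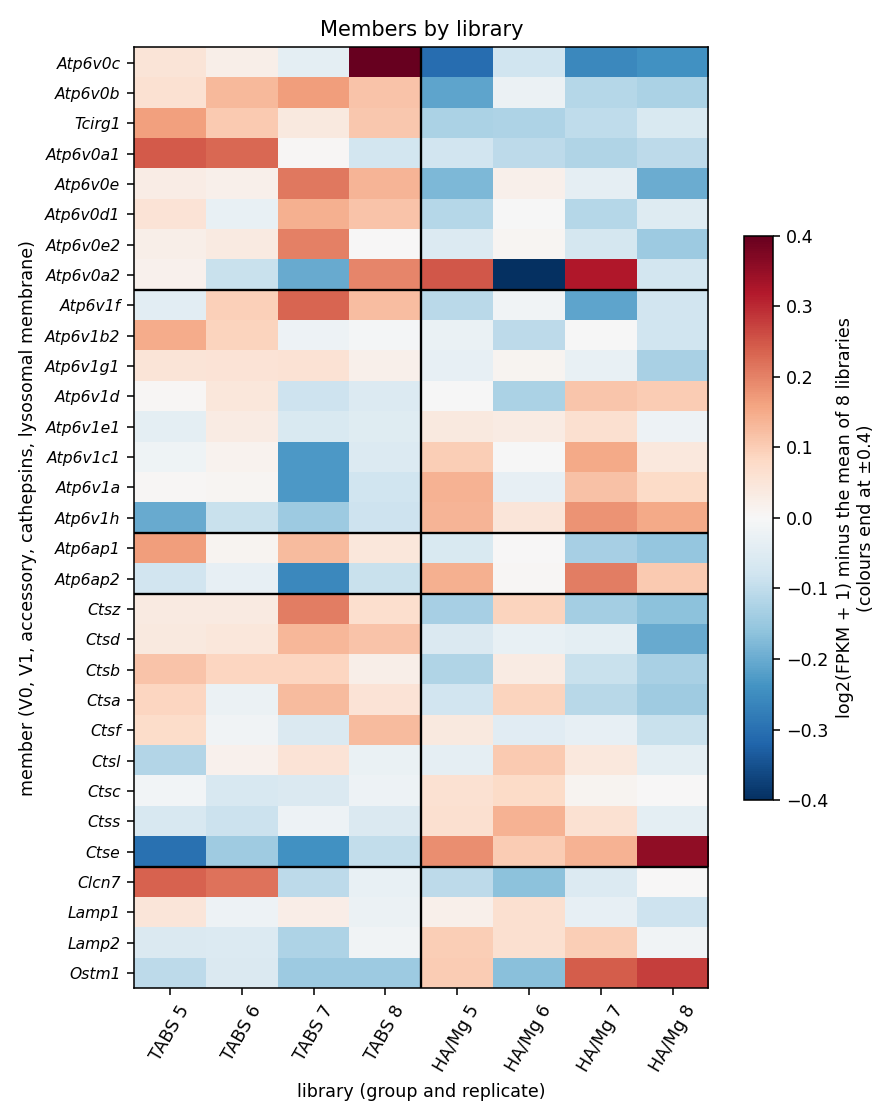
Log2(FPKM + 1) of each tested member minus its mean over the 8 libraries, with red above and blue below that mean and the colours ending at ±0.4. V0 genes other than Atp6v0a2 are mostly red in TABS and blue in HA/Mg, HA/Mg replicate 6 is paler than the other HA/Mg libraries in most of these rows, and Atp6v0c in TABS replicate 8 (109 FPKM) is the darkest red.

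The log2 changes of the members varied with the base composition of their transcripts. Over the 31 tested members the log2 change had a Spearman correlation of 0.68 with the GC content of the longest transcript and of -0.36 with its length, and over 10157 tested genes of 0.54 and -0.31, as descriptions across genes that share the same libraries. The 3 members that rose had a GC content of 51.2% to 58.6% and the 3 that fell one of 37.6% to 49.9%. Tested V0 genes had a median GC content of 52.7%, V1 genes of 46.4% and cathepsins of 49.9%, beside 49.8% over all tested genes. When each library's trends on length and GC content were removed, 2 members passed, Atp6v0a1 higher and Ctse lower, beside 6.37% of all tested genes. The V0 median was then 0.13 and the V1 median 0.08, so the sectors lay closer together than in the values as deposited.

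**Figure D5:**
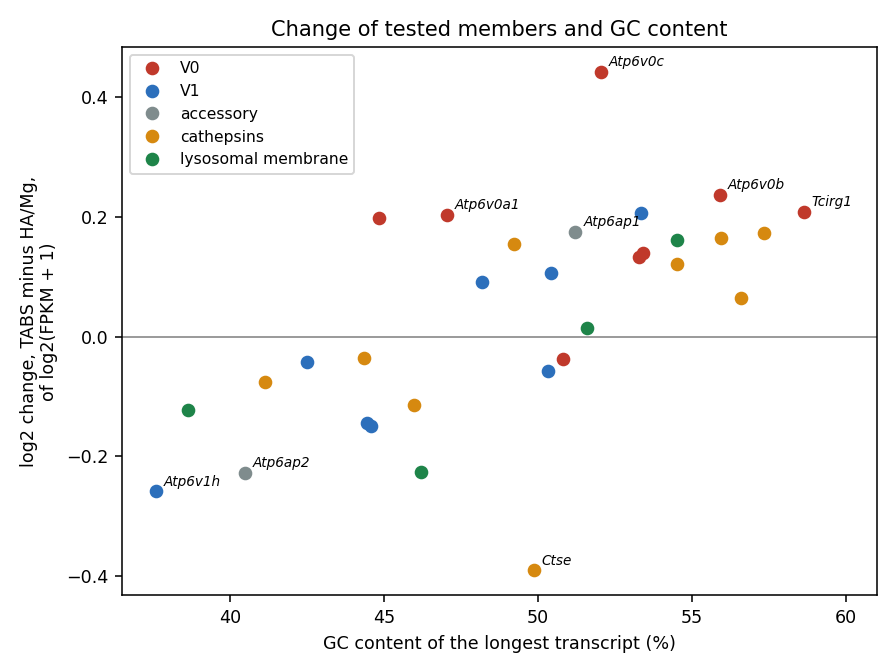
Log2 change (TABS minus HA/Mg, on log2(FPKM + 1)) of the 31 tested members against the GC content of the longest annotated transcript, coloured by class. Members above 50% GC lie mostly above 0 and those below 45% mostly below it, with Atp6v0e and Atp6v0a1 above 0 at lower GC content and Ctse far below 0 at 49.9%.

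The list counts in this and the next paragraphs are of values as deposited. They were not repeated under other scalings, after removal of length and GC trends or with 1 library left out. Over all genes, the 1842 calls became 647 after that removal and 429 to 3320 with 1 library left out. Of 35 tested lysosomal hydrolases outside the cathepsins 5 rose (14.3%, beside 5.07% of all tested genes), 2 fell and 28 did not pass. The median log2 change was 0.12, 28 of the 35 were positive, and 18 (51.4%) had an unadjusted p under 0.05, beside 36.4% of all tested genes. Pld3, a nuclease, rose (58.7 ± 4.77 FPKM with TABS and 45.8 ± 2.55 FPKM with HA/Mg, adjusted p = 0.0133), while Asah1, the acid ceramidase, fell (34.0 ± 1.55 FPKM with TABS and 40.02 ± 1.03 FPKM with HA/Mg, adjusted p = 0.0137). Of 14 tested further membrane proteins 5 rose (35.7%, beside the same 5.07%) and 9 did not pass, with a median log2 change of 0.11. In that list 12 of 14 were positive, and 7 had an unadjusted p under 0.05. Those that rose included Cd68, the macrophage lysosomal glycoprotein (539 ± 16.6 FPKM with TABS and 449.9 ± 33.0 FPKM with HA/Mg, adjusted p = 0.0197), Laptm5 (257 ± 8.64 FPKM with TABS and 226 ± 7.5 FPKM with HA/Mg, adjusted p = 0.0219) and Hgsnat (43.8 ± 2.77 FPKM with TABS and 37.0 ± 1.97 FPKM with HA/Mg, adjusted p = 0.025).

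Counts for regulators and partners are read beside the 18.1% of all tested genes that passed in either direction. Of 17 tested genes of the TFEB family and of nutrient sensing at the lysosome 1 rose, the Ragulator subunit Lamtor1 (32.3 ± 1.30 FPKM with TABS and 27.6 ± 1.52 FPKM with HA/Mg, adjusted p = 0.0223), 1 fell, the GTPase Rragc (30.0 ± 1.28 FPKM with TABS and 34.4 ± 1.02 FPKM with HA/Mg, adjusted p = 0.0228), and 15 did not pass (11.8% passed, median 0.0035). Tfeb itself was 2.46 ± 0.32 FPKM with TABS and 2.31 ± 0.14 FPKM with HA/Mg (adjusted p = 0.611), and Tfe3 8.60 ± 0.46 FPKM with TABS and 7.96 ± 0.77 FPKM with HA/Mg (adjusted p = 0.323), a pair named after their values were seen. Of 10 tested genes of pump assembly and coupling 1 fell, Oxr1, a TLDc protein (1.89 ± 0.15 FPKM with TABS and 2.64 ± 0.29 FPKM with HA/Mg, adjusted p = 0.0218), and 9 did not pass (10% passed, median -0.13). Of 2 tested CLC exchangers Clcn3 fell (4.06 ± 0.48 FPKM with TABS and 5.69 ± 0.75 FPKM with HA/Mg, adjusted p = 0.0281). None of 6 genes of mannose 6-phosphate sorting passed in limma, 0 of them at an unadjusted p under 0.05 (median -0.02; M6pr 85.7 ± 4.98 FPKM with TABS and 87.2 ± 3.58 FPKM with HA/Mg, adjusted p = 0.738; Nagpa 26.2 ± 6.11 FPKM with TABS and 26.7 ± 6.42 FPKM with HA/Mg, adjusted p = 0.95), and none of 3 cystatins and stefins passed, 2 of them with an unadjusted p under 0.05 (median 0.16; Cstb 364 ± 24.2 FPKM with TABS and 326 ± 20.1 FPKM with HA/Mg, adjusted p = 0.0996; Cst3 173 ± 23.0 FPKM with TABS and 158 ± 8.43 FPKM with HA/Mg, adjusted p = 0.315). Of 12 osteoclast genes 5 were tested, and the others, Ctsk and Acp5 among them, were below the filter. Of the 5 tested, Mmp9 rose (144 ± 12.2 FPKM with TABS and 98.1 ± 15.8 FPKM with HA/Mg, adjusted p = 0.0136), Car2 fell (201 ± 14.6 FPKM with TABS and 229 ± 7.86 FPKM with HA/Mg, adjusted p = 0.0457) and 3 did not pass (median -0.03).

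Of 9 tested macrophage markers, in a count also made only on the values as deposited, 3 rose (33.3%, beside 5.07% of all tested genes) and 6 did not pass (median log2 change 0.22). The 3 were Csf1r (112 ± 3.72 FPKM with TABS and 96.5 ± 0.99 FPKM with HA/Mg, adjusted p = 0.0112), Fcgr3 (9.53 ± 0.22 FPKM with TABS and 7.66 ± 0.60 FPKM with HA/Mg, adjusted p = 0.0167) and Cd14 (307 ± 38.7 FPKM with TABS and 225 ± 18.02 FPKM with HA/Mg, adjusted p = 0.0168). The summed level of all 9 markers was 2235 to 2588 FPKM with TABS and 1873 to 2260 FPKM with HA/Mg, and their part in the results above was not tested. None of 10 osteoblast and fibroblast markers reached the filter (summed 0.229 to 0.421 FPKM with TABS and 0.248 to 0.294 FPKM with HA/Mg). Of these 3 were listed at 0, and the highest were Sp7 (0.156 FPKM with TABS and 0.117 FPKM with HA/Mg) and Runx2 (0.153 FPKM with TABS and 0.133 FPKM with HA/Mg). The same held for 6 lymphoid markers (summed 0.243 to 0.56 FPKM with TABS and 0.213 to 0.328 FPKM with HA/Mg), of which 4, Cd3e among them, were listed at 0.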

How the data were processed

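TRIzol RNA went through NEBNext Ultra library preparation and paired-end NovaSeq sequencing, per the labels' protocols. The authors deposited FPKM values; the tools named are fastp, STAR and DESeq2 on GRCm38, per the submitters' processing notes. Versions, the step that made FPKM, the annotation and strand use are not stated in those sources. Of 55335 identifiers 55154 matched GENCODE M21, which gave symbols, transcript lengths and GC content; promoter windows are RefSeq's (GRCm38.p6).

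TABS minus HA/Mg was tested with limma 3.58.1 in R 4.3.3 on log2(FPKM + 1) with a mean-variance trend, two-sided, over the 10161 genes that reached 1 FPKM in 4 or more of the 8 libraries, with Benjamini-Hochberg adjustment and a threshold of 0.05. This scale understates changes of low genes. The steps were tested on simulated data. Trends on length and GC content were removed with natural splines of 4 degrees of freedom. If whole fragments were counted, low values imply the depths given, but only 36.2% to 39.4% were whole within 0.05 fragment, so no count test was run.

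Members and lists (lysosomal regulators, pump assembly, CLC exchangers, hydrolases, membrane proteins, sorting, inhibitors, osteoclast, macrophage, osteoblast and fibroblast, and lymphoid genes) were chosen with earlier results of these data known. Named genes were all changed members, 26 members fixed by name, Ctsk, and from each list up to 3 changed genes of smallest p or else the 2 of highest level. A gene that this rule names is not reported here. The other members were named after their values were seen.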

Additional observations from a re-analysis of the deposited data

Results flagged for a closer look

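A library was singled out where the highest or lowest of the 4 libraries of a group stood apart from the rest by more of the group's range than Dixon's 95% value for 4 samples allows. This held for 4 of 72 groups examined (5.56%), and chance flags about 1 in 20. Atp6v0c was 109 FPKM in TABS replicate 8, against 58.4 to 62.3 FPKM in the other TABS libraries. Atp6v0e2 was 33.8 FPKM in TABS replicate 7, against 29.3 to 30.0 FPKM in the others. Ctsd was 1123 FPKM in HA/Mg replicate 8, the lowest of its group, against 1241 to 1264 FPKM. Ctsz was 822 FPKM in HA/Mg replicate 6, against 689 to 703 FPKM in the other HA/Mg libraries.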

How the results depend on the processing

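The 1842 changed genes became 808 without a filter on low values, 647 after removal of length and GC trends, 3532 with array weights, and 429 to 3320 when 1 library was left out. The 6 changed members became 2 after that removal, 20 with array weights, and 1 to 14 when 1 library was left out. Blocking on replicate number left 0 genes and 0 members past limma's threshold, also with length and GC trends removed (unadjusted p under 0.05 for 2987 genes and 11 members, and 2224 and 11 with trends removed, against 3703 and 21 without the block); same-numbered libraries did not deviate together (correlations of -0.27 to 0.13), so the numbers were not taken as pairs. All 6 changed members kept their sign under all 22 alternatives. Several of these could not alter a gene's log2 change: the other filters, robust moderation, no mean-variance trend and the replicate block. The V0 median (0.20) was 0.15 after rescaling to equal sums, 0.26 with median-of-ratios scaling and 0.13 after removal of length and GC trends, with or without the block. The V1 median (-0.05) was -0.10, 0.0034 and 0.0755 under the same settings. The V1 sum (1.04-fold) was 1.0-fold after rescaling, 1.08-fold with median-of-ratios scaling and 1.01-fold with quantile normalization, which also put the cathepsin sum at 1.01-fold (from 1.10-fold) and cathepsins over pump at 0.949-fold (from 0.999-fold). Without Atp6v0c, a choice made after the data were seen, V0 over V1 was 1.09-fold (from 1.12-fold). Members that had not passed changed sign as follows, without passing. After removal of length and GC trends, with or without the block, the log2 changes were 0.0187 for Atp6v0a2, 0.0138 for Atp6v1a, 0.0307 for Atp6v1c1, 0.14 for Atp6v1d, 0.10 for Ctsc, -0.0205 for Ctsf, 0.15 for Ctsl, -0.00023 for Lamp1 and 0.079 for Lamp2. With median-of-ratios scaling they were 0.0137 for Atp6v0a2, 0.0099 for Atp6v1d and 0.0197 for Ctsl. Quantile normalization gave 0.0211 for Atp6v0a2, 0.0046 for Atp6v1d and -0.0717 for Lamp1, and rescaling gave -0.0355 for Lamp1. Leaving out 1 library moved Atp6v0a2 between -0.18 and 0.063 and Lamp1 between -0.0098 and 0.039. The cause of these shifts was not tested.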
